A study of Mus musculus with 12 samples.

Results

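The genes described here carry glucose into the cell and through glycolysis. They are Slc2a1, Hk1, Hk2, Gpi1, Pfkl, Pfkp, Aldoa, Tpi1, Pgk1 and Ldha, chosen by symbol as the rows of the deposited gene table with these names, 10 of its 24318 genes. All 10 were found and all 10 passed the filter on low counts. Immortalized mouse embryonic fibroblasts gave 12 libraries of polyadenylated RNA. In every group the cells were MafF-/-::MafG-/-::MafK-/-, that is, without functional copies of the small Maf genes, so no group has normal small Maf proteins. In the T-N2G groups the cells also expressed T-N2G, a tethered heterodimer of Nrf2 and MafG, and the mock groups are labelled mock with no further description. The groups were T-N2G cells with 100 µM diethyl maleate (DEM), T-N2G cells with vehicle, mock cells with 100 µM DEM and mock cells with vehicle, each for 12 h in DMEM with 10% fetal bovine serum, with 3 libraries per group. The labels give neither the promoter that drives T-N2G, nor the number of clones, nor whether the replicates were separate cultures, so p-values measure the spread between these libraries, which may be technical.

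Glycolysis splits glucose into pyruvate and yields ATP. A carrier in the plasma membrane brings glucose in, hexokinases trap it as glucose 6-phosphate, phosphofructokinase commits it to the pathway, and lactate dehydrogenase turns pyruvate into lactate. Glucose 6-phosphate also feeds the pentose phosphate branch, which supplies NADPH for the reduction of glutathione. Nrf2 pairs with small Maf proteins to bind antioxidant response elements, and DEM is an electrophile that conjugates glutathione and activates Nrf2. Several glycolytic genes are textbook targets of the hypoxia inducible factor, which binds hypoxia response elements.

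Library totals lay between 18863558 and 23095693 fragments. The construct could be read from its 2 parts. Mafg stood at 66.1 to 111.8 FPKM (fragments relative to gene length and library total) in the T-N2G libraries, against 0.327 to 0.647 FPKM in the mock libraries. Nfe2l2, which encodes Nrf2, stood at 197.8 to 307.2 FPKM in the T-N2G libraries, against 20.8 to 29.1 FPKM in the mock libraries. Of 12 fibroblast markers, 11 passed the filter on low counts and Lum, a fibroblast proteoglycan, was below 1 FPKM in all libraries. Their summed FPKM was 3708 to 4285 in T-N2G DEM, 4437 to 5106 in T-N2G vehicle, 4333 to 4881 in mock DEM and 4618 to 5100 in mock vehicle, so it was lowest in T-N2G DEM; its part in the results below was not tested. With the replicate number as a block in an edgeR fit, 1 of the 11 was higher and 5 were lower for T-N2G over mock cells in DEM, 1 higher and 9 lower for DEM over vehicle in T-N2G cells, 1 higher and 7 lower for DEM over vehicle in mock cells, and 3 higher and 1 lower for T-N2G over mock cells in vehicle. Of all tested genes, that fit called 19.6%, 45.0%, 42.8% and 6.3% in these comparisons, in the same order. Without the block Col1a1, a fibrillar collagen chain, was the 1 marker called, and fell by 0.54 on the log2 scale with DEM in T-N2G cells (adjusted p = 0.00487). There 17.6% of all genes were called. Of the epithelial markers 5 of 6 were below 1 FPKM in all libraries, with Krt19, a keratin, as the exception at a mean of 84.4 FPKM. Of 5 markers each, 4 endothelial, 4 leukocyte and 4 muscle markers were below 1 FPKM in all libraries.

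The start regions of Gpi1, Aldoa and Ldha are shown first, because Gpi1 and Aldoa changed with T-N2G or DEM and Ldha, which has the most matches to a hypoxia motif among the members, was not called in any comparison with all libraries in the fit. Ldha was chosen after its values were seen, and the stretches of Pfkl and Pfkp, which were also called, are left out because they overlap exons of their own gene. The stretches are the 250 bases before an annotated start, 5′ to 3′ on the strand of the gene, from RefSeq on build GRCm38.p6, which is not the mm9 build of the counts. Capitals mark matches on either strand to TGACNNNGC, a core of the antioxidant response element, to ACGTG or to GCGTG, cores of the hypoxia response element. CACGTG holds ACGTG on both strands, so 1 such run counts as 2 overlapping matches.
Gpi1, chr7:34230337-34230586, minus strand: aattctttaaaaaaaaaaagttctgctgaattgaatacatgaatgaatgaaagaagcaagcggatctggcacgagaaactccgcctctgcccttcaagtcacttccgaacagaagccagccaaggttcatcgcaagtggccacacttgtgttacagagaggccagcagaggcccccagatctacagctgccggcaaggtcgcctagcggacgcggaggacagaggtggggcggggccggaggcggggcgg
Aldoa, chr7:126799255-126799504, minus strand: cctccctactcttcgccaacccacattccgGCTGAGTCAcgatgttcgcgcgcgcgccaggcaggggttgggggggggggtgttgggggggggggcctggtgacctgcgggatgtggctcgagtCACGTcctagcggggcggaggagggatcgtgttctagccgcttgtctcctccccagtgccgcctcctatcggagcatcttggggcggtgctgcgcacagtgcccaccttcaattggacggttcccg
Ldha, chr7:46845554-46845803, plus strand: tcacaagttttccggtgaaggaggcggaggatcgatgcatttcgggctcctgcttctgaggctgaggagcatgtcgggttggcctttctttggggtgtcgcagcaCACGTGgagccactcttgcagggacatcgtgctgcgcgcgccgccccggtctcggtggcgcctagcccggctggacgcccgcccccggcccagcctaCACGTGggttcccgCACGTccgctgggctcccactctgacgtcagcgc
The Gpi1 stretch held no match to these motifs and overlapped an exon of the noncoding gene Gm12762. For Aldoa and Ldha the printed start was picked for having the most matches, to TGACNNNGC for Aldoa and to ACGTG for Ldha. The Aldoa stretch, 1 of 3 annotated starts of that gene, held TGACNNNGC on the opposite strand from 220 to 212 bases before the start. It also held ACGTG from 126 to 122 bases before the start. The other Aldoa starts held no TGACNNNGC. This stretch lies in introns of Aldoa and of the overlapping gene Fam57b in GENCODE M21. The Ldha stretch held 5 matches to ACGTG and lies within the Ldha gene, outside its exons. Another annotated start of Ldha held no ACGTG and 1 match to GCGTG. TGACNNNGC was present before a start of 2 of the 10 members, Aldoa and Hk1, and in 10.2% of the 32851 promoters of the table. ACGTG was present in 5 of the 10 members and in 16.6% of all promoters, GCGTG in 5 members and in 28.2% of all promoters, and CCAAT, the CCAAT box, in 4 members and in 33.8% of all promoters. The members count over all of their 14 annotated starts and the other shares over single stretches, so they are set side by side as a description only.

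The members spanned a wide range of levels. Averaged over the 12 libraries, Ldha stood at 333.8 FPKM, Aldoa at 235.4, Tpi1 at 227.2, Pgk1 at 205.7, Gpi1 at 90.7, Pfkl at 37.4, Hk1 at 32.2, Slc2a1 at 20.1, Pfkp at 13.6 and Hk2 at 8.21 FPKM. The ranges over libraries of Ldha, Aldoa, Tpi1 and Pgk1 formed a chain of overlaps, since Aldoa reached 307.7 FPKM and Ldha went down to 283.0 FPKM. Gpi1 overlapped neither Pgk1 above it nor Pfkl below it. Pfkl overlapped Hk1, Hk1 overlapped Slc2a1, and Slc2a1 overlapped Pfkp, while every Pfkp value lay above every Hk2 value. Hk2 varied most, with its highest library at 2.52 times its lowest, and Pgk1 least, at 1.22 times. Between 527 fragments of Hk2 and 10920 of Ldha stood behind each value. Summed over the members the FPKM was 1303, 1227 and 1312 in T-N2G DEM (mean 1280 ± 46.8, SD, n = 3), 1221, 1112 and 1195 in T-N2G vehicle (1176 ± 56.8), 1183, 1250 and 1225 in mock DEM (1219 ± 34.0), and 1200, 1041 and 1183 in mock vehicle (1141 ± 87.3).

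**Figure D1:**
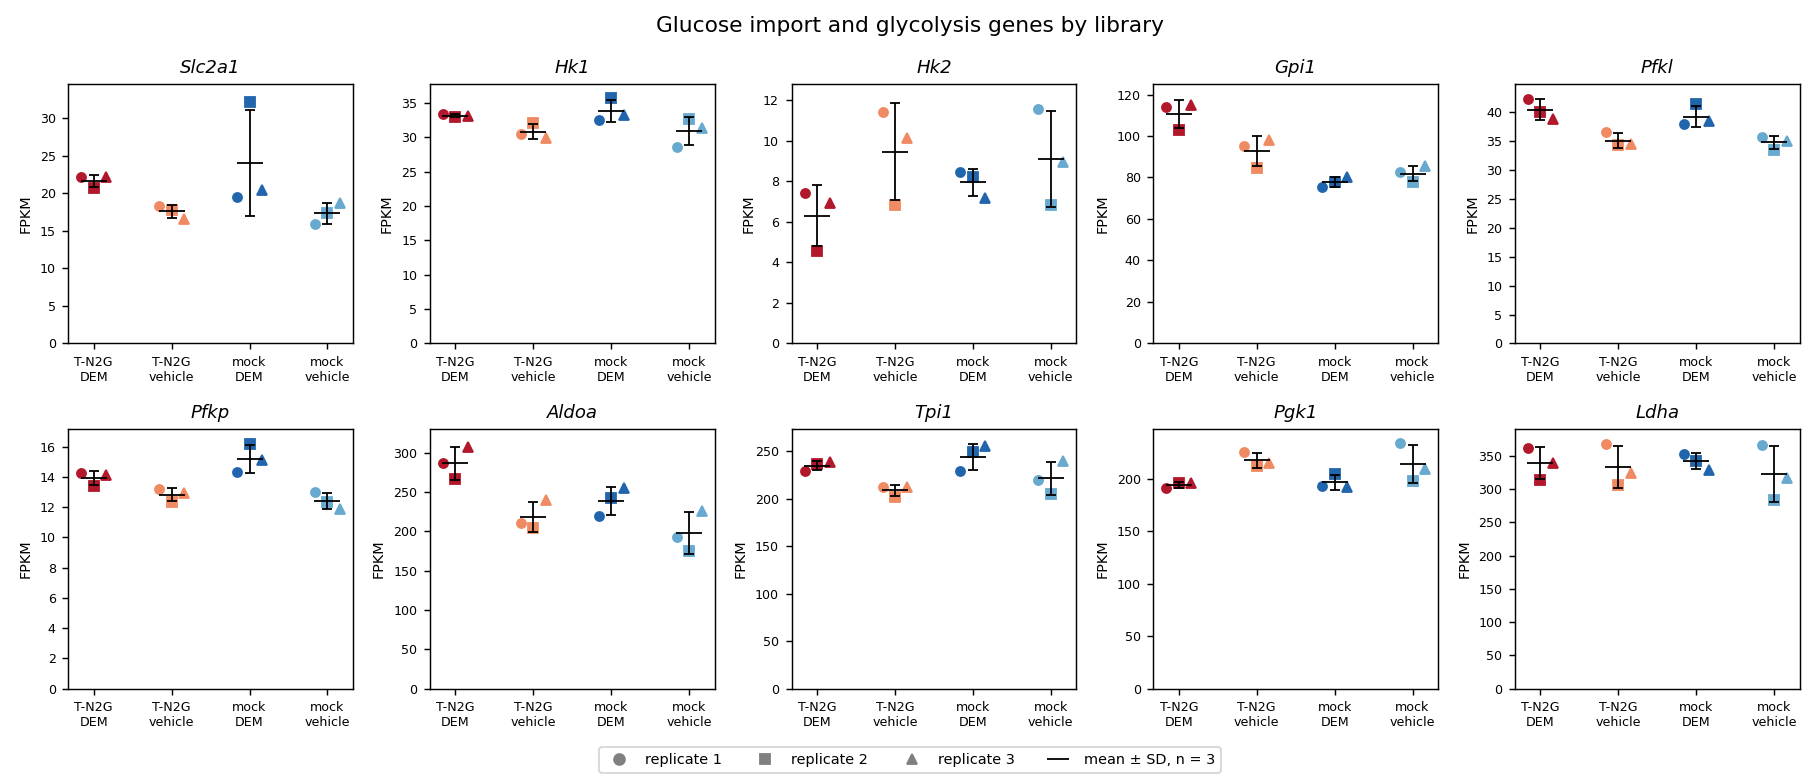
FPKM of each gene in the 12 libraries, by group, with a marker shape per replicate number and the mean ± SD of 3 libraries as a black bar. Gpi1 is at 103.0 to 114.9 FPKM in T-N2G DEM, above all other libraries, and Slc2a1 has 1 mock DEM library at 32.1 FPKM, apart from the rest.

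The first question was whether the tethered factor raised these genes under DEM. Gpi1, glucose 6-phosphate isomerase, rose in T-N2G cells against mock cells. It had 113.8, 103.0 and 114.9 FPKM in the T-N2G DEM libraries, against 75.6, 77.9 and 80.0 FPKM in the mock DEM libraries. The libraries of the groups did not overlap. The log2 fold change was 0.51 ± 0.07 (SE, 3 against 3 libraries; 1.42-fold; edgeR quasi-likelihood test with Benjamini-Hochberg adjustment over all genes, adjusted p = 0.000684), and all 3 same-numbered pairs were higher. In replicates 1 and 2 alone, whose library codes form a series apart from that of replicate 3, it was 0.50 (adjusted p = 0.0483). Fewer cells of a type and less RNA per cell cannot be told apart in such bulk samples.

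Gpi1 was the 1 member of 10 called in this comparison, where 3.71% of the 12469 tested genes were called, 2.61% as higher. The median log2 fold change of the members was -0.02, and that of all genes was -0.005. The libraries did not overlap for 3 members, Gpi1, Pfkp and Aldoa, against 19.8% of all genes. When the replicate number was a block in the fit, 2 members were higher and 1 was lower, against 10.3% of all genes called as higher and 9.32% as lower, 19.6% in all. Those were Gpi1 (adjusted p = 7.97e-08), Aldoa and Hk2. For Aldoa, fructose bisphosphate aldolase, the libraries had 286.4, 265.8 and 307.7 FPKM in T-N2G DEM, against 219.4, 242.6 and 254.7 FPKM in mock DEM. Its lowest T-N2G library stood above its highest mock library. Aldoa differed by a log2 fold change of 0.26 ± 0.10 (adjusted p = 0.212 without the block and 0.00104 with it, edgeR). For Hk2, an inducible hexokinase, the libraries had 7.41, 4.58 and 6.96 FPKM in T-N2G DEM, against 8.46, 8.21 and 7.18 FPKM in mock DEM. All 3 pairs were lower although the groups overlapped. Hk2 had a log2 fold change of -0.33 ± 0.23 (adjusted p = 0.582 without the block and 0.0353 with it, edgeR); with the block and without mock DEM replicate 2 it was -0.13 (adjusted p = 0.177), without T-N2G DEM replicate 1 it was -0.36 (adjusted p = 0.0987), and without T-N2G DEM replicate 2 it was -0.28 (adjusted p = 0.163).

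With all libraries in the fit, the remaining members did not pass the test of T-N2G against mock cells under DEM, with or without the block. Slc2a1, the GLUT1 carrier, had 22.1, 20.7 and 22.1 FPKM in T-N2G DEM, against 19.5, 32.1 and 20.4 FPKM in mock DEM. Mock DEM replicate 2 lay far above the other mock DEM libraries. The log2 fold change of Slc2a1 was -0.15 ± 0.15 (adjusted p = 0.756, edgeR), and 0.11 without that library (adjusted p = 0.660). Pfkp, the platelet phosphofructokinase subunit, had 14.3, 13.4 and 14.1 FPKM in T-N2G DEM, against 14.3, 16.1 and 15.1 FPKM in mock DEM. Its highest T-N2G library, at 14.28 FPKM, was just below its lowest mock library, at 14.29 FPKM, with a log2 fold change of -0.12 ± 0.06 (adjusted p = 0.410, edgeR); with the block and without mock DEM replicate 1 it was -0.19 (adjusted p = 0.0326). Hk1, Pfkl, Tpi1, Pgk1 and Ldha had log2 fold changes between -0.05 and 0.05.

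In vehicle, no member of the 10 was called between T-N2G and mock cells, where 0.313% of all genes were called by edgeR. At an unadjusted edgeR p under 0.05 there was 1 member, Gpi1, beside 800 of the 12469 tested genes. DESeq2 and limma called no member. Gpi1 had 95.1, 84.6 and 98.3 FPKM in T-N2G vehicle, against 82.4, 77.9 and 85.4 FPKM in mock vehicle. Each T-N2G library was above the mock library of its number, and the groups overlapped by 1 library. Gpi1 had a log2 fold change of 0.18 ± 0.07 (1.13-fold), with an adjusted p of 0.607 without the block and 0.0148 with it (edgeR), where 6.3% of all genes were called, 3.06% as higher. With the block, that call was lost without T-N2G vehicle replicate 1 (adjusted p = 0.0949), without T-N2G vehicle replicate 3 (0.0937), without mock vehicle replicate 2 (0.0572) and without mock vehicle replicate 3 (0.0587). The other 9 members had log2 fold changes between -0.08 for Tpi1, triose phosphate isomerase, and 0.14 for Aldoa. The libraries of the groups overlapped for all 10 members, while 10.1% of all genes had groups that did not overlap.

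**Figure D2:**
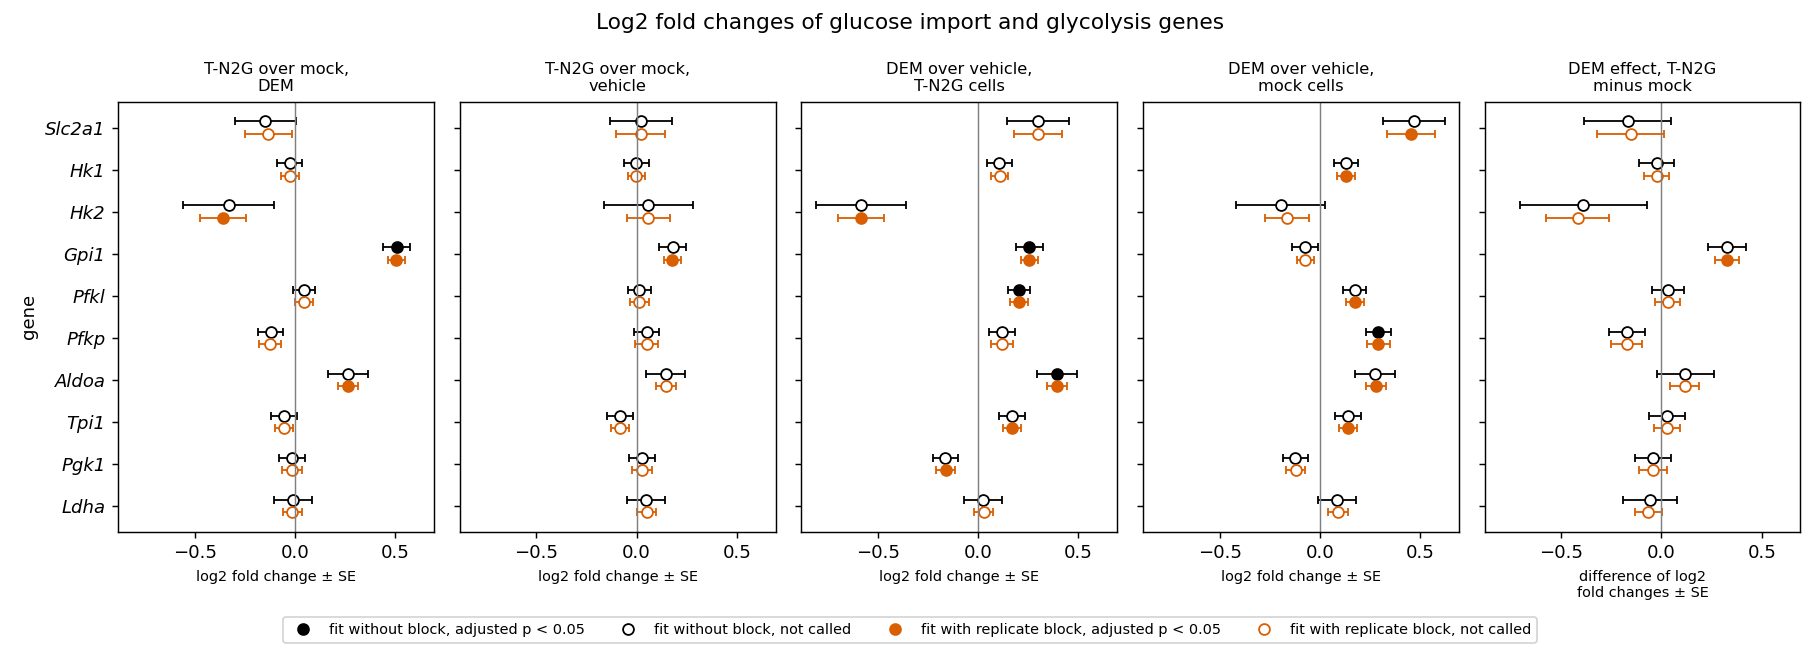
Log2 fold change ± SE of each gene in 4 comparisons of 3 against 3 libraries and the difference between the DEM effects, from the edgeR fit without a block (black) and with the replicate number as a block (orange); filled points have an adjusted p under 0.05. Gpi1 is the 1 gene filled in black for T-N2G over mock in DEM, and Ldha has no filled point.

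DEM was next compared with vehicle within each cell population. In T-N2G cells 3 of the 10 members rose and none fell in the fit without the block, where 17.6% of all genes were called, 10.1% as higher. They were Aldoa, Gpi1 and Pfkl. Of all genes called here 57.1% were higher with the usual scaling and 46.3% with upper quartile scaling. The median log2 fold change of the members was 0.14, against -0.0048 for all genes. The libraries of DEM and vehicle did not overlap for 8 members, the exceptions being Hk2 and Ldha, against 33.7% of all genes.

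Aldoa had 286.4, 265.8 and 307.7 FPKM in T-N2G DEM, against 211.1, 203.7 and 240.0 FPKM in T-N2G vehicle. Every DEM library was above every vehicle library. Aldoa rose by a log2 fold change of 0.39 ± 0.10 (1.31-fold, edgeR adjusted p = 0.0190). Gpi1 had 113.8, 103.0 and 114.9 FPKM in T-N2G DEM, against 95.1, 84.6 and 98.3 FPKM in T-N2G vehicle. Its groups did not overlap either, and the log2 fold change was 0.26 ± 0.07 (1.19-fold, edgeR adjusted p = 0.0215). Pfkl, the liver phosphofructokinase subunit, had 42.3, 40.0 and 38.8 FPKM in T-N2G DEM, against 36.5, 34.3 and 34.5 FPKM in T-N2G vehicle. Its lowest DEM library lay above its highest vehicle library, and the log2 fold change was 0.20 ± 0.06 (1.15-fold, edgeR adjusted p = 0.0274). None of these calls held when only replicates 1 and 2 were used, with log2 fold changes of 0.41 for Aldoa (adjusted p = 0.0513), 0.26 for Gpi1 (0.125) and 0.21 for Pfkl (0.156). The calls of Aldoa and Gpi1 were also lost without T-N2G DEM replicate 1 or 3 or T-N2G vehicle replicate 1 or 2, at adjusted p up to 0.0704 for Aldoa and 0.0883 for Gpi1, and that of Pfkl without T-N2G DEM replicate 1 or 2 or T-N2G vehicle replicate 2 or 3, at up to 0.105. Fitting the 2 groups alone ended the calls of Gpi1 (adjusted p = 0.0819) and Pfkl (0.0798), and upper quartile scaling (0.0548) and no filter (0.0664) ended that of Pfkl. With the replicate block all 3 calls held whichever 1 of the 6 libraries was left out.

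With the replicate block 4 members rose and 2 fell in T-N2G cells with DEM, against 22.8% of all genes called as higher and 22.2% as lower, 45.0% in all. The added members were Tpi1, Hk2 and Pgk1. Hk2 had 7.41, 4.58 and 6.96 FPKM in T-N2G DEM, against 11.5, 6.82 and 10.2 FPKM in T-N2G vehicle. Replicate 2 was the lowest library of both groups, so that the groups overlapped while every pair fell. The log2 fold change of Hk2 was -0.58 ± 0.23 (0.667-fold), with an edgeR adjusted p of 0.0956 without the block and 0.000500 with it. Without the block, DESeq2 called Hk2 as lower (-0.59, adjusted p = 0.0486). So did edgeR without T-N2G vehicle replicate 2 (-0.78, adjusted p = 0.0365), while the other fits without the block did not.

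Pgk1, phosphoglycerate kinase, had 191.4, 195.7 and 196.1 FPKM in T-N2G DEM, against 225.6, 212.5 and 215.3 FPKM in T-N2G vehicle. All DEM libraries were below all vehicle libraries. The log2 fold change of Pgk1 was -0.16 ± 0.06 (adjusted p = 0.0945 without the block and 0.0118 with it, edgeR; 0.0805 with the block and without T-N2G DEM replicate 1). Tpi1 had 229.5, 236.5 and 238.6 FPKM in T-N2G DEM, against 211.9, 201.7 and 212.6 FPKM in T-N2G vehicle. Its groups did not overlap, and the log2 fold change was 0.17 ± 0.06 (adjusted p = 0.0883 without the block and 0.00566 with it, edgeR; 0.0550 with the block and without T-N2G DEM replicate 2). Spsb2, which overlaps Tpi1 on the opposite strand, stood at 3.42 to 9.25 FPKM over the 12 libraries; the strand setting of the counting is not given, so fragments of the gene pair cannot be told apart. Slc2a1, Hk1, Pfkp and Ldha passed neither test in T-N2G cells, with log2 fold changes of 0.30, 0.11, 0.12 and 0.03. With the block, Slc2a1 was called as higher without T-N2G vehicle replicate 1 (0.39, adjusted p = 0.0355) and without T-N2G DEM replicate 2 (0.42, 0.0184), and Hk1 without T-N2G DEM replicate 2 (0.14, 0.0310).

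In mock cells, which have no small Maf proteins and no tethered factor, Pfkp was the 1 member of 10 that rose with DEM without the block, where 13.9% of all genes were called, 7.76% as higher. Pfkp had 14.3, 16.1 and 15.1 FPKM in mock DEM, against 13.0, 12.3 and 11.9 FPKM in mock vehicle. The groups did not overlap. Pfkp rose by a log2 fold change of 0.29 ± 0.06 (1.22-fold, edgeR adjusted p = 0.0122), and 0.26 in replicates 1 and 2 alone (adjusted p = 0.161). Pitrm1, on the opposite strand over Pfkp, was at 69.6 to 86.3 FPKM, several times the level of Pfkp, and its own log2 fold change in mock cells with DEM was -0.06.

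With the block 6 members rose and none fell in mock cells with DEM, against 42.8% of all genes called, 20.9% as higher. They were Slc2a1, Hk1, Pfkl, Pfkp, Aldoa and Tpi1. Slc2a1 had 19.5, 32.1 and 20.4 FPKM in mock DEM, against 15.9, 17.4 and 18.7 FPKM in mock vehicle. The 1 high library set much of its size: the log2 fold change of Slc2a1 was 0.47 ± 0.15 (adjusted p = 0.0645 without the block and 0.00534 with it, edgeR), and without mock DEM replicate 2 it was 0.21 without the block (adjusted p = 0.142) and 0.20 with it (adjusted p = 0.0354). Pfkl had 37.9, 41.3 and 38.4 FPKM in mock DEM, against 35.7, 33.5 and 35.1 FPKM in mock vehicle. Pfkl did not overlap between the groups, with a log2 fold change of 0.17 ± 0.06 (adjusted p = 0.0613 without the block and 0.00528 with it, edgeR).

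Aldoa had 219.4, 242.6 and 254.7 FPKM in mock DEM, against 192.7, 174.4 and 226.0 FPKM in mock vehicle. Its groups overlapped and all 3 pairs were higher, with a log2 fold change of 0.27 ± 0.10 (adjusted p = 0.0868 without the block and 0.000317 with it, edgeR). Tpi1 had 228.9, 248.6 and 254.9 FPKM in mock DEM, against 219.3, 205.3 and 239.1 FPKM in mock vehicle, and a log2 fold change of 0.14 ± 0.06 (adjusted p = 0.161 without the block and 0.0173 with it, edgeR). Hk1, the hexokinase most tissues express, had 32.5, 35.7 and 33.2 FPKM in mock DEM, against 28.6, 32.6 and 31.4 FPKM in mock vehicle. All 3 Hk1 pairs were higher by a small step, with a log2 fold change of 0.13 ± 0.06 (adjusted p = 0.180 without the block and 0.0224 with it, edgeR). The block calls of Tpi1 and Hk1 were each lost in 3 of the 6 fits that left out 1 mock library, at adjusted p up to 0.142 for Tpi1 and 0.185 for Hk1: for Tpi1 without mock vehicle replicate 2, mock DEM replicate 2 or mock DEM replicate 3, and for Hk1 without mock vehicle replicate 1, mock DEM replicate 1 or mock DEM replicate 2.

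Gpi1 was not called in mock cells with DEM when all libraries were in the fit. It had 75.6, 77.9 and 80.0 FPKM in mock DEM, against 82.4, 77.9 and 85.4 FPKM in mock vehicle, with a log2 fold change of -0.07 ± 0.07 (edgeR adjusted p = 0.495 without the block and 0.176 with it). With the block and without mock DEM replicate 2 it was called as lower, at -0.12 (adjusted p = 0.0418). Pgk1, Hk2 and Ldha had log2 fold changes of -0.12, -0.20 and 0.08 in mock cells and passed neither test with all libraries. With the block, leaving out mock DEM replicate 2 gave -0.39 for Hk2 (adjusted p = 0.000140) and -0.16 for Pgk1 (0.0194), leaving out mock vehicle replicate 2 gave -0.18 for Pgk1 (0.0143), and Ldha was called as higher without mock DEM replicate 1 (0.14, 0.0497) or mock vehicle replicate 1 (0.13, 0.0499). The median of the members was 0.14 in mock cells, against -0.01 for all genes. The libraries of DEM and vehicle did not overlap for 3 members, Slc2a1, Pfkl and Pfkp, against 33.5% of all genes.

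Whether the DEM effect differed between T-N2G and mock cells was tested as the difference of the log2 fold changes. No member was called without the block, where 0.433% of all genes were called by edgeR. At an unadjusted edgeR p under 0.05 there was 1 member, Gpi1, beside 455 of the 12469 tested genes. DESeq2 and limma called no member. With the block, Gpi1 was called among 2.8% of all genes, 1.82% as higher. Its DEM effect was larger in T-N2G cells than in mock cells by 0.33 ± 0.09 on the log2 scale (edgeR adjusted p = 0.434 without the block and 0.00325 with it). That block call held with each of the 12 libraries left out in turn. For the other members the difference lay between -0.39 ± 0.32 for Hk2 and 0.12 ± 0.14 for Aldoa, and an adjusted p that misses the threshold does not show that the DEM effects were equal. Slc2a1 had a difference of -0.17 ± 0.22, which turned to 0.09 ± 0.11 without mock DEM replicate 2.

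Ldha, the lactate dehydrogenase subunit that dominates in glycolytic tissue, was called in none of these comparisons with all libraries in the fit, with or without the block. Its libraries had 362.0, 314.2 and 339.6 FPKM in T-N2G DEM, 367.6, 306.4 and 324.6 FPKM in T-N2G vehicle, 352.9, 342.8 and 328.8 FPKM in mock DEM, and 366.7, 283.0 and 316.6 FPKM in mock vehicle. Replicate 2 was lowest in 3 of the groups, and all groups overlapped. The largest log2 fold change of Ldha was 0.08 ± 0.10, for DEM in mock cells.

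Both hexokinases and both phosphofructokinase subunits among the members could be set side by side per length, as shares of their summed FPKM. Pfkm, another phosphofructokinase subunit outside the members, averaged 10.75 FPKM over the 12 libraries and is not part of these shares. Hk2 made up 15.9 ± 3.23% of the summed FPKM of Hk1 and Hk2 in T-N2G DEM, 23.4 ± 5.17% in T-N2G vehicle, 19.1 ± 1.47% in mock DEM and 22.8 ± 5.75% in mock vehicle (SD, n = 3 each). In T-N2G cells the Hk2 share was lower with DEM in all 3 pairs, with a difference of the means of -7.49 percentage points (exact two-sided permutation test, p = 0.2, adjusted 0.4 over 8 comparisons). Pfkp made up 25.7 ± 0.881% of the summed FPKM of Pfkl and Pfkp in T-N2G DEM, 26.8 ± 0.478% in T-N2G vehicle, 27.9 ± 0.455% in mock DEM and 26.3 ± 0.846% in mock vehicle. The difference of the Pfkp share was -2.25 points for T-N2G DEM against mock DEM and 1.60 points for mock DEM against mock vehicle, each with groups that did not overlap (exact permutation p = 0.1, adjusted 0.4). An exact test of 3 against 3 libraries cannot go below 0.1, so none of the 8 comparisons could pass.

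**Figure D3:**
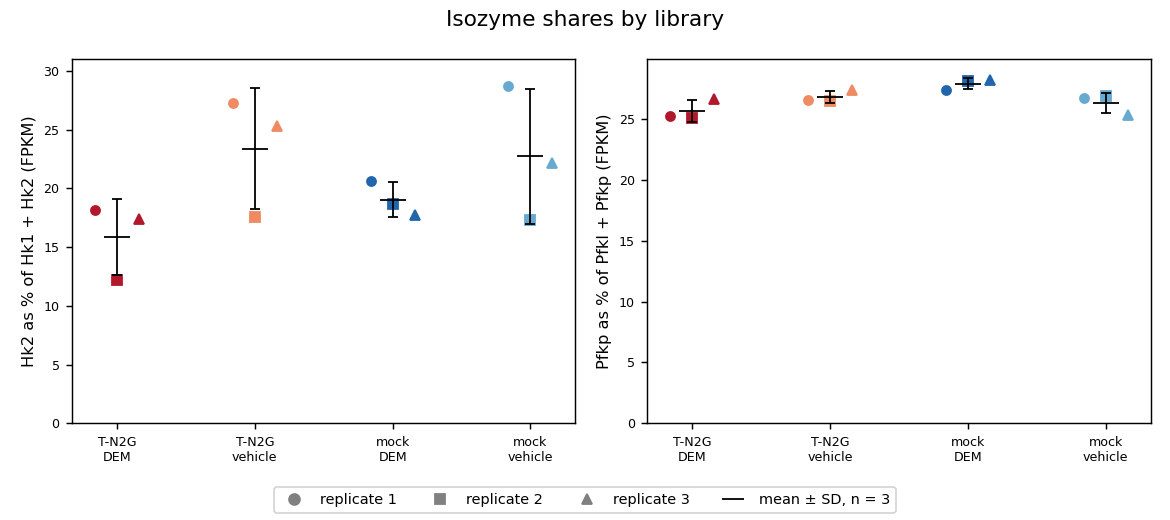
Share of Hk2 in the FPKM of Hk1 and Hk2 (left) and of Pfkp in the FPKM of Pfkl and Pfkp (right), in percent, by library and group, with the mean ± SD of 3 libraries. The Hk2 share spreads widely within groups, from 12.2 to 18.2% in T-N2G DEM and from 17.3 to 28.8% in mock vehicle, while the Pfkp share stays between 25.1 and 28.2% in all 12 libraries.

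Across the 12 libraries the members did not all vary together. The Pearson r of a member's log2 CPM (counts scaled to library size) with the mean of the other members was 0.844 for Pfkl, 0.747 for Pfkp, 0.698 for Slc2a1, 0.667 for Aldoa, 0.590 for Tpi1 and 0.527 for Ldha. It was 0.308 for Hk1 and 0.202 for Gpi1, and below 0 for Hk2 (-0.212) and Pgk1 (-0.449). The libraries fall into 4 groups and share replicate numbers, so these values are descriptions. Among 8931 genes of at least 10 CPM, the pattern most like the mean of the members was that of Naa16 (r = 0.891), then Fosl1 (0.889), Med22 (0.888), Pygo2 (0.881) and Xpo6 (0.878). Fosl1, a subunit of the AP-1 transcription factor, rose with DEM by 1.38 on the log2 scale in T-N2G cells (edgeR adjusted p = 0.0188) and by 1.29 in mock cells (0.0348). Med22 rose by 0.27 in each (edgeR adjusted p = 0.0192 and 0.0237). Naa16, Pygo2 and Xpo6 were called with DEM in neither without the block, at log2 fold changes between 0.09 and 0.33.

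The pathway's other genes were taken by list. The counts of this and the later lists stand beside the following shares of all genes called by edgeR. For T-N2G over mock in vehicle it was 0.313% without the block and 6.3% with it, and in DEM 3.71% and 19.6%. For DEM in T-N2G cells it was 17.6% and 45.0%, and in mock cells 13.9% and 42.8%. For the difference of DEM effects it was 0.433% and 2.8%. Of 25 further glycolytic enzymes and glucose carriers, 16 were tested. Pkm, pyruvate kinase, rose in T-N2G cells over mock cells in DEM: it averaged 965.4 ± 84.1 FPKM in T-N2G DEM, against 738.7 ± 28.7 FPKM in mock DEM (SD, n = 3 each), a log2 fold change of 0.39 ± 0.09 (edgeR adjusted p = 0.0382). It was the 1 of the 16 called there. In T-N2G cells with DEM, Eno3, the muscle enolase, fell by 0.34 ± 0.07 (adjusted p = 0.00978) and no other of the 16 was called. In mock cells with DEM, Eno2, the neuronal enolase, rose by 0.75 ± 0.22 (adjusted p = 0.0438) and Ldhb, the heart lactate dehydrogenase subunit, fell by 0.70 ± 0.18 (adjusted p = 0.0249). Eno2 had 5.33, 8.07 and 5.16 FPKM in mock DEM, with replicate 2 highest, against 3.10, 3.81 and 3.93 FPKM in mock vehicle. With the block the counts were 2 higher and 1 lower for T-N2G over mock in vehicle, 2 higher and 2 lower for T-N2G over mock in DEM, 3 higher and 5 lower for DEM in T-N2G cells, and 1 higher and 6 lower for DEM in mock cells. Of the enzymes that make or break down fructose 2,6-bisphosphate or split fructose 1,6-bisphosphate, 5 of 7 were tested and none was called in any of these comparisons by edgeR without the block. The most abundant in mock vehicle, Tigar, a fructose bisphosphatase induced by p53, had a log2 fold change of -0.07 ± 0.12 with DEM in T-N2G cells; in mock cells with DEM it was -0.21 ± 0.12 (adjusted p = 0.260 without the block and 0.0154 with it).

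The pentose phosphate branch leaves glycolysis just before the step of Gpi1. Of its 7 tested genes, 4 rose in T-N2G cells against mock cells under DEM. Pgd, 6-phosphogluconate dehydrogenase, averaged 248.1 ± 35.7 FPKM in T-N2G DEM, against 42.2 ± 1.87 FPKM in mock DEM (log2 fold change 2.56 ± 0.13, edgeR adjusted p = 1.62e-07). G6pdx, the enzyme that draws glucose 6-phosphate into the branch, had a log2 fold change of 1.37, Taldo1, transaldolase, of 1.27 and Tkt, transketolase, of 0.76. The same 4 genes rose with DEM in T-N2G cells, and in mock cells with DEM none rose and 2, Tkt and Rpia, fell, by 0.25 and 0.33 on the log2 scale (adjusted p = 0.0228 and 0.0372). With the block 5 of the 7 fell in mock cells with DEM, Pgd, Rpe and Taldo1 beside those, and Rpe also fell in T-N2G cells with DEM, by 0.24 (adjusted p = 0.00189). In vehicle none was called between T-N2G and mock cells without the block, and 4 were higher with it: Pgd at 0.64, G6pdx at 0.43, Taldo1 at 0.40 and Tkt at 0.22 on the log2 scale (adjusted p = 9.65e-06, 0.000774, 0.00273 and 0.00273). Beside these, the log2 fold change of Gpi1 in the same comparison of T-N2G with mock cells under DEM was 0.51.

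**Figure D4:**
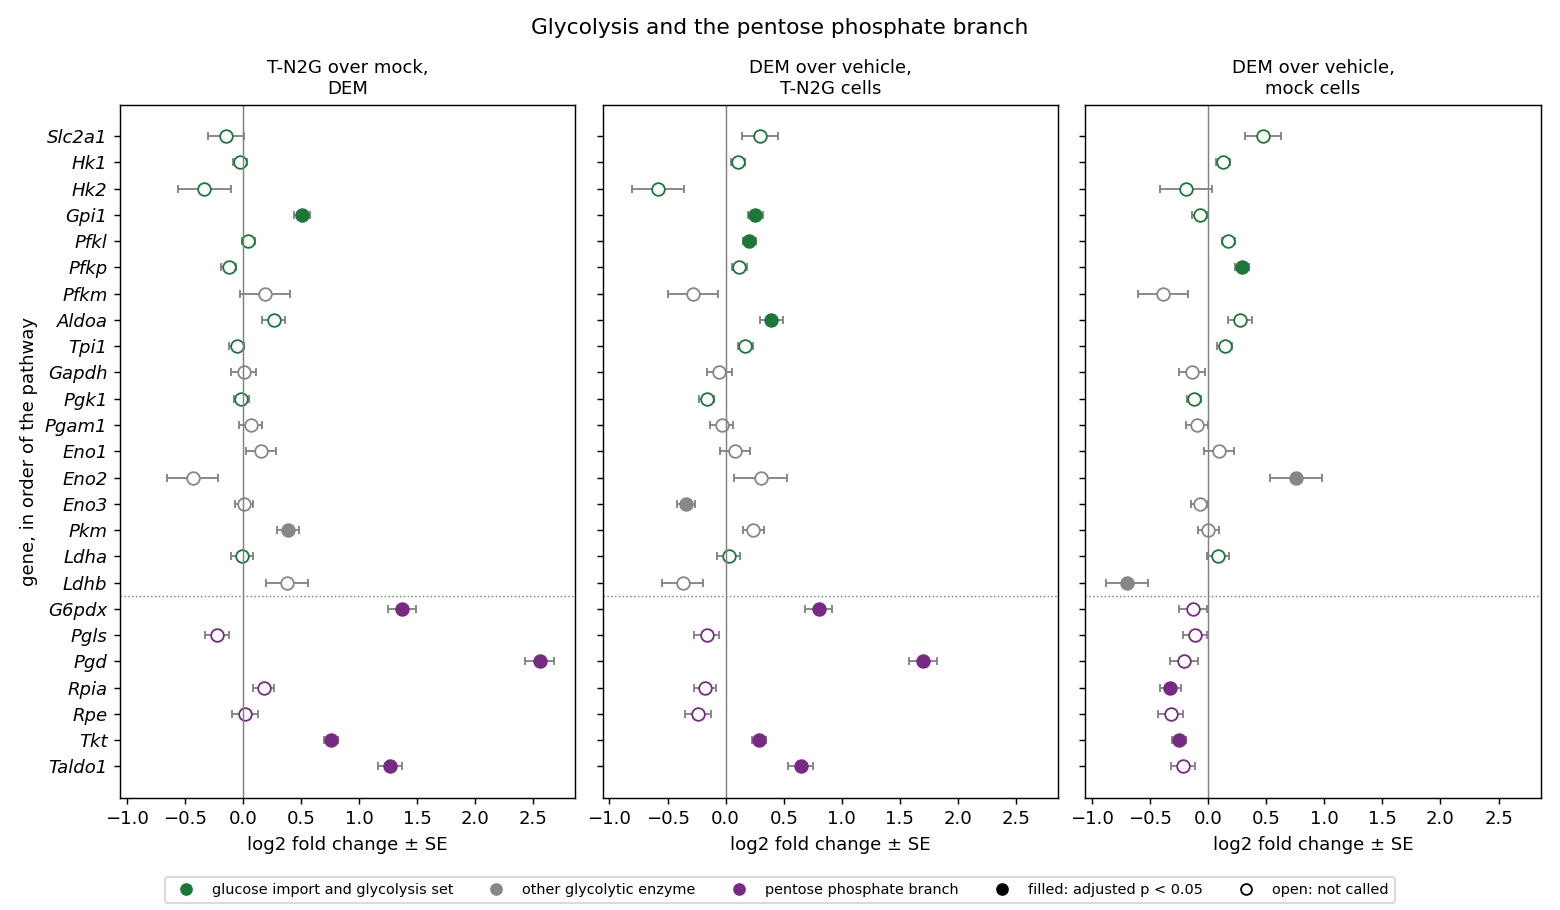
Log2 fold change ± SE for glycolysis in pathway order and, below the dotted line, the pentose phosphate branch, in 3 comparisons of 3 against 3 libraries; filled points have an edgeR adjusted p under 0.05. For T-N2G over mock in DEM the glycolytic points lie within about 0.5 of 0 on the log2 scale, with Gpi1 at 0.51, while Pgd is at 2.56.

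The storage and mitochondrial exits of the pathway were taken next. Of 16 tested genes of the glycogen, hexosamine and polyol branches, 3 rose and none fell without the block in T-N2G over mock cells under DEM. Among them, Gbe1, the glycogen branching enzyme, rose by 1.74 ± 0.16 and Sord, sorbitol dehydrogenase, by 0.74 ± 0.12 on the log2 scale (edgeR adjusted p = 3.95e-05 and 0.00406). With DEM in T-N2G cells 4 were called as higher without the block, among them Gbe1, Sord and Pgm2, a phosphoglucomutase. In mock cells Gys1, the muscle glycogen synthase, was called, at 0.39 ± 0.07 (adjusted p = 0.00660). With the block 4 of the 16 were higher and 3 lower for T-N2G over mock in DEM, 7 higher and none lower for DEM in T-N2G cells, and 4 higher and 1 lower for DEM in mock cells. Of 18 tested genes of pyruvate and lactate fate, Pdk4, a kinase that inhibits pyruvate dehydrogenase, rose by 2.12 ± 0.41 (adjusted p = 0.0108) and Pcx, pyruvate carboxylase, by 0.77 ± 0.17 (adjusted p = 0.0224) in T-N2G over mock cells under DEM. Pcx also rose with DEM in T-N2G cells, by 0.62, and Pdhb, a pyruvate dehydrogenase subunit, fell with DEM in mock cells, by 0.27 (adjusted p = 0.0322). With the block 1 of the 18 was higher and 2 lower for T-N2G over mock in vehicle, 2 higher and 1 lower for T-N2G over mock in DEM, 2 higher and 7 lower for DEM in T-N2G cells, and none higher and 6 lower for DEM in mock cells.

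Hypoxia inducible genes outside glycolysis and the factors that act on glycolytic genes were taken as 2 more lists. Of 18 tested hypoxia inducible genes, 5 rose and none fell without the block with DEM in mock cells, Vegfa, a vascular growth factor, by 1.00 ± 0.14 (edgeR adjusted p = 0.00171), P4ha1 and P4ha2, prolyl hydroxylases of collagen, Ero1l, an oxidase of the endoplasmic reticulum, and Kdm3a, a histone demethylase. In T-N2G cells with DEM 3 rose, Ero1l by 0.62 ± 0.08, Kdm3a and P4ha1, and Ndrg1 fell by 0.72 ± 0.11 (adjusted p = 0.00110). Under DEM, P4ha2 was the 1 hypoxia inducible gene called without the block between T-N2G cells and mock cells, at a log2 fold change of -0.35 ± 0.07. With the block 10 rose and 3 fell with DEM in mock cells, 5 rose and 5 fell with DEM in T-N2G cells, and for T-N2G over mock cells in DEM none was higher and 5 were lower, P4ha2, P4ha1, Ndrg1, Ddit4 and Bhlhe40. The difference of DEM effects was then negative for 3, Vegfa, Ddit4 and Ndrg1, against none called without the block. In T-N2G and mock cells, Vegfa averaged 5.99 and 3.63 FPKM in vehicle, and 6.85 and 7.24 FPKM in DEM. Its cell populations thus differed more in vehicle than in DEM. Ddit4 averaged 20.9 and 23.0 FPKM in vehicle, and 17.7 and 31.6 FPKM in DEM. Ndrg1 averaged 19.6 and 17.7 FPKM in vehicle, and 11.9 and 15.5 FPKM in DEM. In vehicle 1 of the 18 was higher and none lower with the block. Of 14 tested transcription factor genes, Klf4 fell in T-N2G over mock cells under DEM (-0.80 ± 0.14), with DEM in T-N2G cells (-1.01 ± 0.14) and with DEM in mock cells (-0.58 ± 0.14), and Esrra, an orphan nuclear receptor, rose with DEM in mock cells (0.42 ± 0.12). With the block 1 of the 14 was higher and 2 lower for T-N2G over mock in DEM, and 2 were higher and 2 lower for DEM in each cell population. Txnip, an arrestin induced by glucose that limits its uptake, fell by 0.74 ± 0.15 with DEM in T-N2G cells (adjusted p = 0.00745), and its relative Arrdc4 fell by 0.47 ± 0.10 in T-N2G cells and by 0.36 ± 0.09 in mock cells; with the block both fell in both cell populations.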

How the data were processed

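The submitters' processing notes list TopHat2 2.0.8b, Cuffdiff 2.1.1, bcl2fastq 2.16.0.10 and the build mm9; the roles, the strand setting and the annotation are not given in the sources used here. The authors deposited, per gene and library, an estimated count of fragments (98.3% whole numbers, tolerance 0) and FPKM. The series design text ties the table's conditions to sample titles. Counts were rounded and tested in edgeR 4.0.16 (R 4.3.3) by quasi-likelihood with TMM scaling (0.980 to 1.028), with filterByExpr (minimum count 10, total 15; 12469 genes kept) and 1 coefficient per group over all 12 libraries; a gene was called at an adjusted p under 0.05 (Benjamini-Hochberg over the tested genes), and SEs are approximate. The labels do not say what replicate numbers stand for. Libraries were compared by their deviations from group means, which cancel within a group, so negative r between other-numbered libraries is partly built in. The 36 pairs of other number and other group had r from -0.422 to -0.00363. All 18 same-numbered pairs of libraries deviated together (r 0.361 to 0.631). Values or counts with replicate as a block therefore stand beside member results and many of the list counts that the block changed. Some changed list counts are left out, such as that of the glycogen, hexosamine and polyol genes for the difference of DEM effects. Alternatives were DESeq2 1.42.0, limma 3.58.1 on log2(FPKM + 1) and log2(FPKM + 0.1), upper quartile scaling, no filter, the 2 groups alone, replicates 1 and 2 alone and each library left out; the block with a library left out was added after seeing the data. The edgeR fit was also run on simulated counts. These were drawn without the shared pattern of same-numbered libraries, so that run cannot show how the fit behaves under it. The members and lists were chosen with earlier results of these data known. All members are named; of each list, up to 4 called genes per comparison with the smallest adjusted p, or the most abundant tested gene; Krt19, Lum and the overlapping genes were added after their values were seen. Aldoa, Tpi1, Pgk1 and Ldha have processed pseudogenes that may take or give fragments, so their values are uncertain. Gm26762 overlaps Gpi1, Fam57b overlaps Aldoa and Hk1os overlaps Hk1 on the opposite strand, and fragments of each pair cannot be told apart; Fam57b was at 0.0586 to 0.461 FPKM and Hk1os at 0.542 to 2.36 FPKM. A gene that the naming rule would include is not reported here.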

Additional observations from a re-analysis of the deposited data

Results flagged for a closer look

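The DEM effect on Gpi1 differed between T-N2G and mock cells in the fit with the replicate block, at an adjusted p of 0.00325 (difference of log2 fold changes 0.33), and not in the fit without it, at 0.434. In the pentose phosphate branch the DEM effect differed between the cell populations without the block for Pgd (adjusted p = 0.000302), Tkt (0.0221), Taldo1 (0.0258) and G6pdx (0.0311), and among glycogen genes for Gbe1 (0.0167), each larger in T-N2G cells. For Pfkp every T-N2G library was below the mock library of its number in DEM and above it in vehicle, a log2 difference of -0.1718, which passed no test of the difference (edgeR adjusted p = 1.0 without the block and 0.378 with it).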

How the results depend on the processing

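Direction and call of the higher Gpi1 in T-N2G over mock cells under DEM held in every alternative run, at adjusted p from 1.17e-09 to 0.0483. The replicate block moved the called members, for T-N2G over mock in vehicle to 1 from 0, in DEM to 3 from 1, for DEM in T-N2G cells to 6 from 3, in mock cells to 6 from 1 and for the difference to 1 from 0. Replicates 1 and 2 alone gave 0 called members for DEM in T-N2G cells and 0 in mock cells, and DESeq2 gave 4 in T-N2G cells and 3 in mock cells. Leaving out 1 library gave 0 to 0 called members for T-N2G over mock in vehicle, 1 to 1 in DEM, 0 to 2 for DEM in T-N2G cells, 1 to 2 in mock cells and 0 to 0 for the difference; with the block it gave 0 to 1, 2 to 4, 5 to 7, 5 to 7 and 1 to 1.

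Over all genes, T-N2G over mock in vehicle called 39 genes, and 785 with the block, 108 by DESeq2, 16 from the 2 groups alone, 6 from replicates 1 and 2 alone and 14 to 36 without 1 library. T-N2G over mock in DEM called 463, and 2445 with the block, 702 by DESeq2, 143 from replicates 1 and 2 and 275 to 410 without 1 library. DEM in T-N2G cells called 2195, and 5615 with the block, 1329 from 2 groups, 445 from replicates 1 and 2 and 1324 to 1708 without 1 library. DEM in mock cells called 1737, and 5339 with the block, 1133 from 2 groups, 123 from replicates 1 and 2 and 927 to 1153 without 1 library. The difference called 54, and 349 with the block, 98 by DESeq2, 6 from replicates 1 and 2 and 23 to 54 without 1 library.

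Over every setting run, the block with a library left out included, 62 of 1110 member values changed sign against the fit without the block, in 19 of 50 results, and none of the 62 was called in either setting. Pfkl in T-N2G over mock in DEM changed sign only with the block and a library left out, to -0.0076 without mock DEM replicate 1; the ranges below leave out such fits. Beyond leaving out a library, Hk1 in T-N2G over mock in vehicle went to 0.0342 (replicates 1 and 2) and 0.0008 (2 groups), Hk2 there to -0.0045 (replicates 1 and 2), and Ldha for DEM in T-N2G cells to -0.0072 (upper quartile) and -0.0023 (replicates 1 and 2). Without 1 library the log2 values that changed sign ranged, for T-N2G over mock in vehicle, from -0.0397 to 0.0779 for Slc2a1, -0.0557 to 0.0398 for Hk1, -0.1123 to 0.2627 for Hk2, -0.0141 to 0.0311 for Pfkl, -0.0255 to 0.0924 for Pgk1 and -0.0361 to 0.1485 for Ldha; in DEM, from -0.281 to 0.1112 for Slc2a1, -0.0563 to 0.0049 for Hk1, -0.0376 to 0.0059 for Pgk1 and -0.0614 to 0.0329 for Ldha; for DEM, from -0.033 to 0.0965 for Ldha in T-N2G cells and -0.3629 to 0.0055 for Hk2 in mock cells; and for the difference, from -0.3014 to 0.0885 for Slc2a1, -0.073 to 0.0295 for Hk1, -0.0047 to 0.061 for Pfkl, -0.03 to 0.0716 for Tpi1, -0.1078 to 0.003 for Pgk1 and -0.1593 to 0.0182 for Ldha. For T-N2G over mock in vehicle the difference in isozyme share ranged from -2.07 to 3.66 points for Hk2 and from -0.002515 to 0.773 for Pfkp. The cause was not tested. Each member had at least 527 fragments per library.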
